A study of Homo sapiens with 12 samples.

Results

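The genes described here are 39 genes of mitosis, the division phase of the cell cycle, picked by name from 23497 genes measured in an NRAS-mutant human melanoma line. Each name matched 1 row of the deposited table, and all 39 were among the 17114 genes with enough reads to be tested. The line, WM1366, was followed as 3 daughter lines resistant to a BRAF inhibitor given with a MEK inhibitor, and as the sensitive line they are compared with. The EB-resistant cells were in encorafenib with binimetinib, the VC-resistant cells in vemurafenib with cobimetinib, the DT-resistant cells in dabrafenib with trametinib, and the sensitive cells in the solvent DMSO. RNA was taken 72 h after seeding, in 3 independent experiments numbered 2, 5 and 6, which gave 3 libraries per group and 12 in all. All 4 groups carry the line's NRAS mutation. Each drug pair is represented by 1 resistant line, so errors and adjusted p values describe the spread between experiments and not between separately derived lines. Resistance, the drug in the medium and culture history differ together between a resistant line and the sensitive cells and cannot be told apart.

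Mitosis is started by the kinase CDK1 bound to cyclin B. The spindle, the kinetochores that tie chromosomes to it, and a checkpoint that watches this attachment then prepare the cut between sister chromatids, which the anaphase-promoting complex (APC/C) sets off by marking securin and cyclin B for destruction. Most of the genes for these proteins are read late in the cycle: the MuvB complex, whose subunit LIN54 binds the DNA element called CHR, holds them silent with RBL1 or RBL2 in resting cells and drives them with MYBL2 and FOXM1 in dividing cells, often beside CCAAT boxes bound by NF-Y. In a bulk culture, a smaller share of cells in mitosis and less RNA per mitotic cell cannot be told apart.

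Both elements were looked up in promoter windows from RefSeq (GRCh38.p14), each 300 bases long with 250 bases before the transcript start and 50 after it. A window was listed for 34 members, and 5 of these had more than 1, which makes 41 windows. Aurora A (AURKA), BIRC5, TPX2, TTK and UBE2C had no entry. The CHR element was searched as TTTGAA or TTCGAA and the CCAAT box as CCAAT, each on both strands. A CHR word stood in at least 1 window of 27 of the 34 members (79.4%), against 15.8% of 11355 tested genes and 19.5% of all 27305 genes in the promoter table. A CCAAT box stood in 28 of 34 (82.4%), against 43.6% of tested and 39.7% of all genes. Both were present in 23 of 34 (67.6%), against 6.70% of tested and 7.85% of all genes, and 2 members held neither. The 48 other mitotic genes with a window held a CHR word in 75%, a CCAAT box in 68.8% and both in 56.2%. In 25 members a CHR word began within 100 bases of a listed start. Of all pairs of matches in the 41 windows, 5 shared a base.

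The 6 windows below come from members of 6 different roles, the ones with the lowest adjusted p in a comparison with sensitive cells among those holding a CHR word. Capitals mark CHR words (TTTGAA or TTCGAA, read as TTCAAA or TTCGAA on the opposite strand) and CCAAT boxes (ATTGG on the opposite strand), and each window is written 5′ to 3′ along its gene.
CDK1 (chr10:60778081-60778380, plus strand): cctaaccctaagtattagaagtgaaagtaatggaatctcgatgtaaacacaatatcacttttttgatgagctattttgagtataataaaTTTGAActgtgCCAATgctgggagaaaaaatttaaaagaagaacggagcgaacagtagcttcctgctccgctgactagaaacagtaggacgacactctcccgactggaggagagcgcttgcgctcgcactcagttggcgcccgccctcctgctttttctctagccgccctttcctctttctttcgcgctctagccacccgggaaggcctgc
SGO1 (chr3:20186157-20186456, minus strand): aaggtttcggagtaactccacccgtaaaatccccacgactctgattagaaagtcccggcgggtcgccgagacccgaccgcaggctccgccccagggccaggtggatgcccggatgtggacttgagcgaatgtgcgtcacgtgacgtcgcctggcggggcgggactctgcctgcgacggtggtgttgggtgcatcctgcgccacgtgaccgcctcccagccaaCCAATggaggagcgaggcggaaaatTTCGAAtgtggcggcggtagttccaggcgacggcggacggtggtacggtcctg
KIF11 (chr10:92592880-92593179, plus strand): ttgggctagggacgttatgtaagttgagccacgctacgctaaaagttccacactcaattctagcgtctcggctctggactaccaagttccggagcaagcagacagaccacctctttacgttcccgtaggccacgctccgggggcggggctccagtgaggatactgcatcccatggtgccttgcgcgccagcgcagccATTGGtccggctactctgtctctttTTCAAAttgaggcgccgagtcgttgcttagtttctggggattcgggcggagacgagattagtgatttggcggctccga
MAD2L1 (chr4:120066799-120067098, minus strand): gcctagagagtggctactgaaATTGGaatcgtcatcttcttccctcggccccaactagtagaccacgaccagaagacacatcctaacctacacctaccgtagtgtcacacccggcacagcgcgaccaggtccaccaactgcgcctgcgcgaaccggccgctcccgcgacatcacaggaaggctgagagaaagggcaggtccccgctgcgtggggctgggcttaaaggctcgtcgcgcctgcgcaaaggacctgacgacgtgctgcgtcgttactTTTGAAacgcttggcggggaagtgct
KIF23 (chr15:69414099-69414398, plus strand): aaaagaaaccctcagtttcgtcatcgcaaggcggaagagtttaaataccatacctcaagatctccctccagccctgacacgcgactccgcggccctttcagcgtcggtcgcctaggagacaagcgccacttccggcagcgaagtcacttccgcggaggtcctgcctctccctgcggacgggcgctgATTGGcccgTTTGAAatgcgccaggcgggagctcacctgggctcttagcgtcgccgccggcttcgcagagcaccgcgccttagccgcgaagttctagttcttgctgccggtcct
NUF2 (chr1:163321704-163322003, plus strand): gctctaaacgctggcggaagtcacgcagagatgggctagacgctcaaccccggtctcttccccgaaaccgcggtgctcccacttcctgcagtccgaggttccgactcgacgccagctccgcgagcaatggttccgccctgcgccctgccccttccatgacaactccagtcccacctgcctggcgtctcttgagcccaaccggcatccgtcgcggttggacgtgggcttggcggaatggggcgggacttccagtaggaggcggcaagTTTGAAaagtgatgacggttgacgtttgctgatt
Each of the 6 held 1 CHR word, and all but NUF2 also held 1 CCAAT box. In SGO1 the CHR word spans the start, in KIF11 it begins 28 and in KIF23 55 bases before it, and in MAD2L1 and NUF2 it begins 25 and 17 bases after it. CDK1 has 2 listed windows, and in the first, shown here, the CHR word begins 161 bases before the start. The second, not shown, held CHR words beginning at -69, -13 and 10 bases from its start and CCAAT boxes at -78 and -46. A matched word is a description of the letters in a window and not evidence that a factor binds there.

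**Figure D1:**
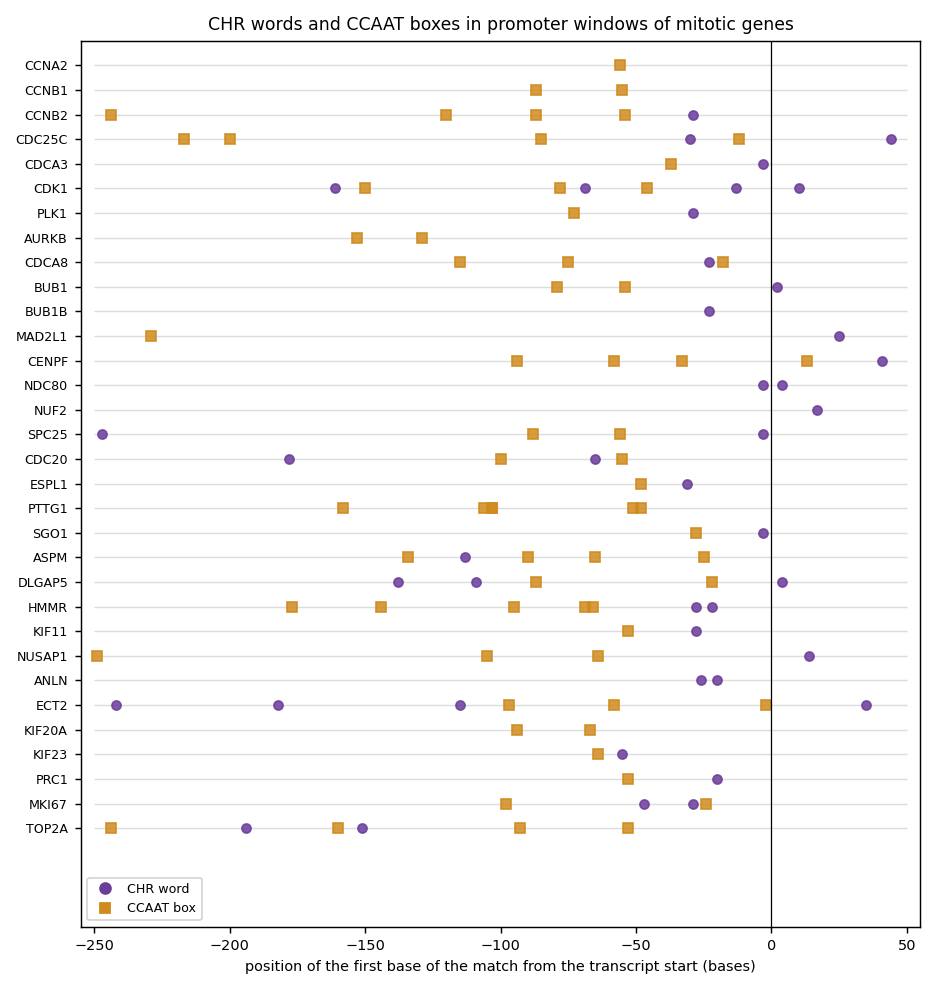
Position of each CHR word (circles) and CCAAT box (squares) in the promoter windows of members, by distance in bases from the transcript start (vertical line). One row per member with a match, ordered by role, with all listed windows of a gene overlaid; of 34 members with a window, 27 held a CHR word and 28 a CCAAT box.

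Library totals lay between 40491309 and 54495132 counts, and over all genes the median log2 fold change lay between -0.005 and 0.001 in the 6 comparisons. Mean counts per library were 960 for CDC25C and more for every member except PRC1 (207.5) and NUSAP1 (8.33). NUSAP1 and PRC1 are covered over 99.49% of their length by another protein-coding gene on the same strand in GENCODE 29, AC087721.2 over NUSAP1 and AC068831.7 over PRC1, so reads common to both genes may be missing from their rows, and their values are uncertain. AC068831.7 has a row in the count table, with a mean of 151.5 counts. AC087721.2 has none, so whether it was in the annotation used for counting is not known. NUSAP1, a microtubule-bundling protein of the spindle, averaged 0.167 ± 0.131 CPM (each count relative to the TMM-adjusted size of its library) in EB-resistant, 0.154 ± 0.109 CPM in VC-resistant, 0.209 ± 0.122 CPM in DT-resistant and 0.182 ± 0.0630 CPM in sensitive cells (SD, n = 3 each), too low to compare. Other genes overlap 16 members, mostly on the opposite strand, and whether counting used the strand is not given in the sources used here. The opposite-strand gene RGS5 covers 61.9% of NUF2, GNB3 40.0% of CDCA3 and NOSTRIN 39.6% of SPC25, with a mean of 123, 36.2 and 4.25 counts. SGO1-AS1, at 2.92 counts, covers 46.7% of SGO1 on the opposite strand. Smaller parts are covered by more strongly read opposite-strand genes. FAM53C, at a mean of 3230 counts, covers 12.1% of CDC25C, whose own mean is 960. EXOSC9 (2407.5 counts) covers 7.77% of CCNA2, and OIP5 (574.7 counts) 19.6% of NUSAP1. BRD8 (2537 counts) and CDC23 (3519 counts) cover 2.61% and 0.822% of KIF20A. Of the melanoma markers with a row, MITF was at 53.3, 66.4 and 66.3 CPM in EB-, VC- and DT-resistant cells and 47.1 CPM in sensitive cells. PMEL was at 0.526, 0.379 and 0.453 CPM in EB-, VC- and DT-resistant cells and 0.755 CPM in sensitive cells, and DCT averaged under 0.1 CPM in every group. SOX10, MLANA, TYR and S100B have no entry in the table used. Summed fibroblast markers (6 genes) were at 109 to 148 CPM in sensitive libraries and higher in every resistant one. They were at 524 to 586 CPM in EB-resistant, 280 to 313 CPM in VC-resistant and 360.0 to 467 CPM in DT-resistant libraries. THY1 averaged 410, 277, 248 and 127 CPM in EB-, VC-, DT-resistant and sensitive cells, the largest part of each sum. LUM averaged 49.8, 14.7, 145 and 0.916 CPM and COL1A1 17.9, 0.603, 3.57 and 0.325 CPM in the same order. PDGFRB averaged 74.5 CPM in EB-resistant and at most 2.60 CPM in other cells. COL1A2 and DCN averaged at most 0.0622 and 0.146 CPM in any group. Immune markers summed to at most 1.19 CPM and endothelial markers to at most 7.28 CPM. The part of these markers in the differences below was not tested.

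The 39 genes together held less of the RNA in each resistant line than in sensitive cells. Their summed level was 6514, 5974 and 6025 CPM in EB-resistant replicates 2, 5 and 6, 6736, 6665 and 6866 CPM in VC-resistant replicates, 5531, 6833 and 7076 CPM in DT-resistant replicates and 7196, 7736 and 8287 CPM in sensitive replicates. All 9 resistant libraries lay below all 3 sensitive ones. Group means were 6171 ± 298 CPM in EB-resistant, 6756 ± 102 CPM in VC-resistant, 6479.9 ± 831 CPM in DT-resistant and 7739.6 ± 546 CPM in sensitive cells (SD, n = 3 each). As a share of all counts, without TMM scaling, the members averaged 0.649%, 0.658% and 0.630% in EB-, VC- and DT-resistant cells and 0.779% in sensitive cells. By this share DT-resistant cells had the lowest mean, and by the TMM-scaled sums EB-resistant cells had it. With 3 against 3 libraries an exact permutation test cannot give a two-sided p below 0.1, so no p is given for these sums and shares. In TMM-scaled CPM, sensitive cells had the highest group mean for 27 of the members, and EB-resistant cells the lowest for 23. These counts include NUSAP1, and the same order was not counted over all genes.

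One library stood apart. DT-resistant replicate 2 was the lowest of its group for 37 of 38 members (NUSAP1 left out), with a median log2 ratio of -0.31 to the mean of the other DT-resistant libraries; over all genes it was lowest for 39.6%, with a median ratio of 0.01. Smaller shifts ran through other groups. Sensitive replicate 2 was the lowest of its group for 28 of 38 members (42.5% of the same 11604 genes), with a median log2 ratio of -0.09. Sensitive replicate 6 was the highest of its group for 30 of 38 members and EB-resistant replicate 2 for 27 (median log2 ratio 0.10). The share of those genes highest in each library was not counted.

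**Figure D2:**
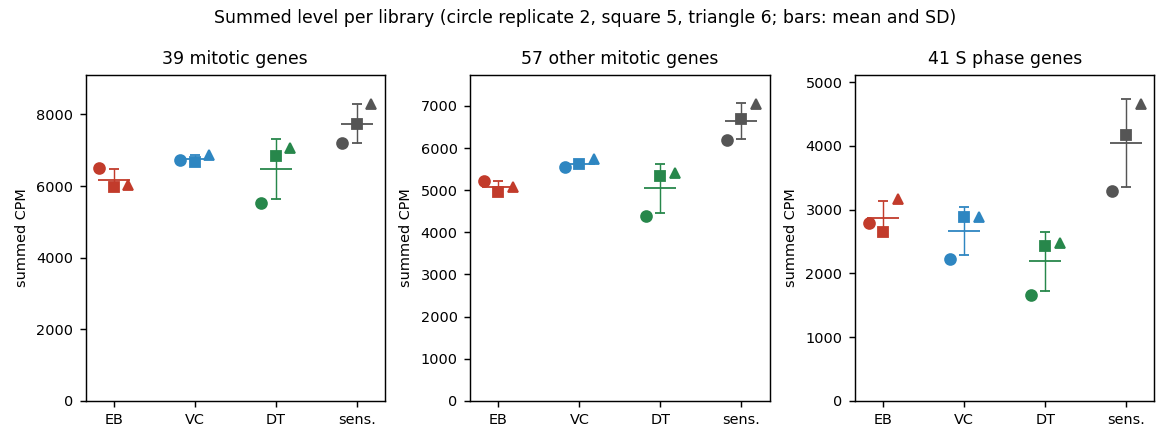
Summed level per library in CPM of the 39 members, of 57 other mitotic genes and of 41 S phase genes, with each library as a point (circle replicate 2, square 5, triangle 6) and the mean and SD of 3 libraries as bars. For the 39 members the resistant libraries run from 5531 to 7076 CPM, below the sensitive ones at 7196 to 8287 CPM, and the low DT-resistant circle is replicate 2.

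A gene is called higher or lower here when edgeR's quasi-likelihood test gives an adjusted p under 0.05, with Benjamini-Hochberg adjustment over the 17114 genes. Log2 fold changes (log2FC) are resistant over sensitive and carry a standard error. In EB-resistant cells 27 of 39 members were lower (background: 27.6% of all genes) and 2 higher (background 28.5%), with a median log2FC of -0.39 against a median near 0 over all genes. That is 29 called members, where 56.1% of all genes were called. In VC-resistant cells 20 were lower (background 27.4%) and 3 higher (background 27.6%), with a median log2FC of -0.20, and 55% of all genes were called in either direction. In DT-resistant cells 23 were lower (background 29.3%) and 2 higher (background 29.8%), with a median log2FC of -0.27, and 59.1% of all genes were called in either direction. The 3 comparisons share the sensitive libraries and are not independent of each other. Most differences were small: at 1.5-fold or more, 12, 4 and 6 members were lower in EB-, VC- and DT-resistant cells (background 16.2%, 16.3% and 18.3%). Those higher by as much numbered 1, 1 and 0 (background 18.7%, 16.6% and 18.5%). Counted by libraries that do not overlap, 31, 23 and 21 members lay wholly below the sensitive libraries in EB-, VC- and DT-resistant cells (background 31.9%, 30.9% and 31.7%). Those wholly above numbered 2, 5 and 1 (background 32.8%, 30.8% and 32%). The lower count in VC-resistant cells was 13 without sensitive replicate 6, and the higher count in DT-resistant cells was 4 without DT-resistant replicate 2 and 1 without DT-resistant replicate 5 or 6 or sensitive replicate 2. Lower calls that held when any 1 of the 12 libraries was left out numbered 22, 12 and 16 in EB-, VC- and DT-resistant cells. The share of all genes whose lower calls held in this way was not computed. Without NUSAP1 and PRC1, 26 of 37 members were lower and 2 higher in EB-resistant cells, 20 and 3 in VC-resistant cells, and 23 and 2 in DT-resistant cells. Among the 27 members with a CHR word, 18 were lower and 1 higher in EB-resistant than in sensitive cells, 14 lower and 2 higher in VC-resistant cells, and 17 lower and 0 higher in DT-resistant cells. Among the 7 members with a window but no CHR word, 5, 4 and 3 were lower in EB-, VC- and DT-resistant cells, and 1, 1 and 2 were higher. These counts stand beside the same shares of all genes, 27.6%, 27.4% and 29.3% lower and 28.5%, 27.6% and 29.8% higher in EB-, VC- and DT-resistant cells. The members with and without the word were not tested against each other.

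The same 15 members were lower in all 3 lines (background 12.1%): AURKB, BIRC5, CDC20, CDCA8, CDK1, CENPE, CENPF, ESPL1, KIF11, KIF23, MAD2L1, MKI67, NUF2, SGO1 and TPX2. This number fell to 7 without sensitive replicate 6, and CENPF is in it through an EB-resistant call that most alternatives ended. In 6 of them, CENPE, ESPL1, KIF11, MAD2L1, SGO1 and TPX2, every one of the calls held without each of the 12 libraries. How many of all genes did the same was not computed. No member was higher in all 3 lines (edgeR, background 12.5%, also 0 at an unadjusted p under 0.05 and by DESeq2 or limma). The members called in no line were ANLN, BUB1B, NUSAP1, TOP2A and TTK, which is 5 of 39 (background 18.5%).

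**Figure D3:**
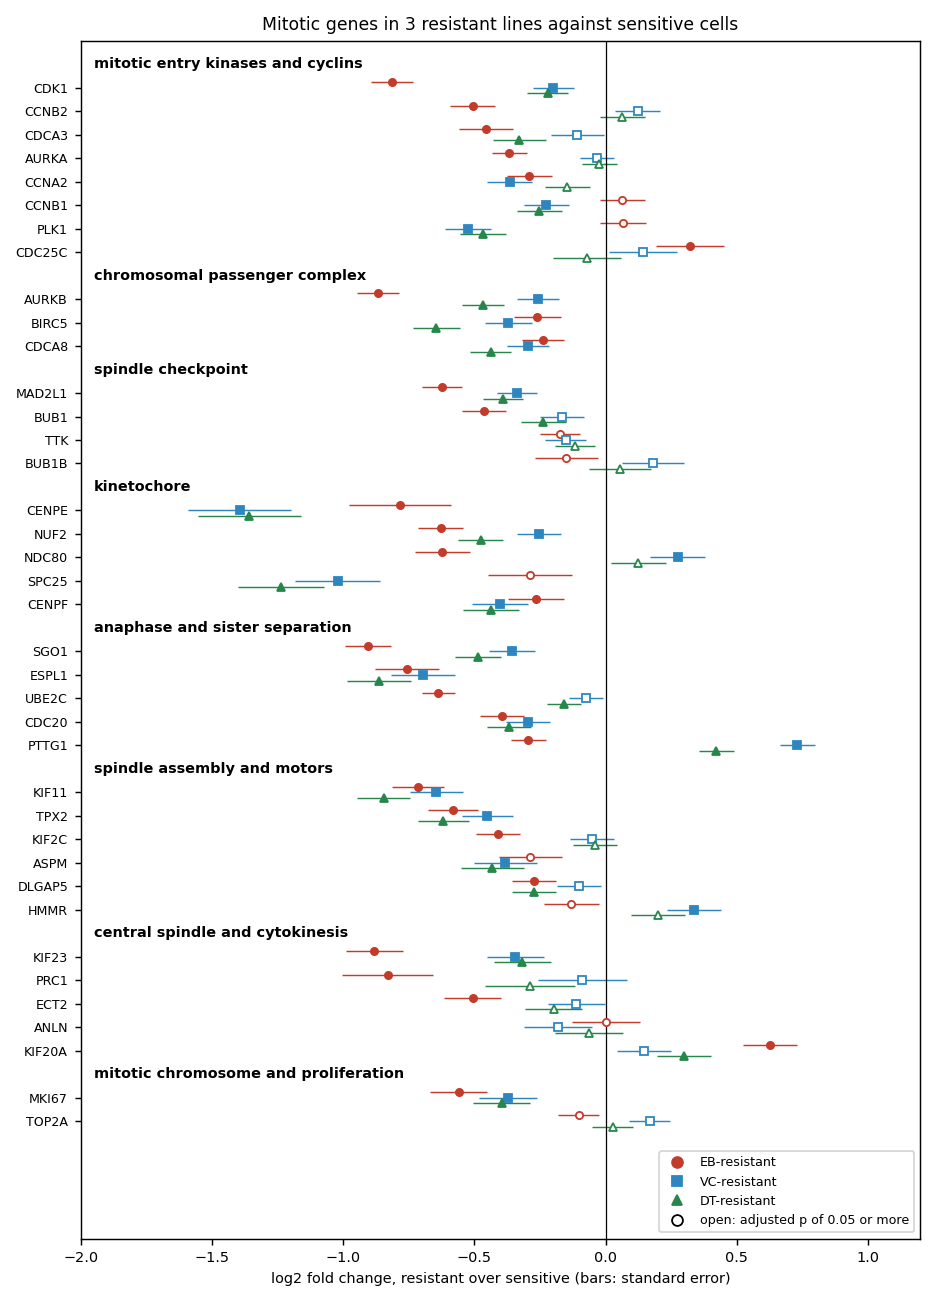
Log2 fold change (x axis, bars are standard errors) of 38 members in EB-resistant (circles), VC-resistant (squares) and DT-resistant cells (triangles) over sensitive cells, grouped by role. Filled points have an adjusted p under 0.05; most filled points lie left of 0, and PTTG1, KIF20A, HMMR, NDC80 and CDC25C have filled points to the right.

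Of the 8 genes of mitotic entry, 5, 4 and 4 were lower in EB-, VC- and DT-resistant cells (background 27.6%, 27.4% and 29.3%). The only higher call was CDC25C in EB-resistant cells (background 28.5%). CDK1, the kinase that starts mitosis, was lower in every line. It had 134, 129 and 133 CPM in EB-resistant libraries, 202, 192 and 213 CPM in VC-resistant, 177, 201 and 219 CPM in DT-resistant and 225, 224 and 247 CPM in sensitive libraries. Every resistant library lay below every sensitive one, and the EB-resistant libraries lay apart from all others. Its log2FC was -0.81 ± 0.08 in EB-resistant cells (adjusted p = 4.48e-07), -0.20 ± 0.08 in VC-resistant cells (adjusted p = 0.0407) and -0.22 ± 0.08 in DT-resistant cells (adjusted p = 0.0238). The VC-resistant call was lost without 8 of the 12 libraries (DT-resistant replicate 5, EB-resistant 2, 5 and 6, VC-resistant 2 and 5, sensitive 5 and 6; adjusted p from 0.0536 to 0.201), and the DT-resistant call without DT-resistant replicate 2 or sensitive replicate 6 (adjusted p = 0.14 and 0.117).

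Of the 3 cyclins, CCNB2 and CCNA2 were called lower in EB-resistant cells, as CDK1 was, and CCNB1 was not. Cyclin B1 (CCNB1) had 438, 389.8 and 392 CPM in EB-resistant libraries, 331, 336 and 330.2 CPM in VC-resistant, 282, 336 and 361 CPM in DT-resistant and 363, 396 and 408 CPM in sensitive libraries. EB-resistant and sensitive libraries overlapped (log2FC 0.06 ± 0.09, adjusted p = 0.549), while VC- and DT-resistant libraries all lay below the sensitive ones (log2FC -0.23 ± 0.09 and -0.25 ± 0.09, adjusted p = 0.0347 and 0.0187). The VC-resistant call was lost without EB-resistant replicate 5 or 6, any VC-resistant replicate, or sensitive replicate 5 or 6 (adjusted p from 0.0501 to 0.144), and the DT-resistant call without DT-resistant replicate 2 or sensitive replicate 5 or 6 (adjusted p from 0.0642 to 0.109). Cyclin B2 (CCNB2) was lower in EB-resistant cells (log2FC -0.51 ± 0.09, adjusted p = 0.000134) and not called in VC-resistant (0.12 ± 0.09) or DT-resistant cells (0.06 ± 0.09). Cyclin A2 (CCNA2), which acts in S phase and early mitosis, was lower in EB-resistant (log2FC -0.29 ± 0.09, adjusted p = 0.00922, 0.0573 without sensitive replicate 5) and VC-resistant cells (log2FC -0.36 ± 0.09, adjusted p = 0.00218). In DT-resistant cells CCNA2 was not called (-0.14 ± 0.09, adjusted p = 0.16, 0.0411 without sensitive replicate 2).

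PLK1, the kinase that promotes CDK1 activation and centrosome maturation, had the same arrangement as cyclin B1. PLK1 had 179, 176 and 164 CPM in EB-resistant libraries, 116, 118 and 110.1 CPM in VC-resistant, 101, 129.6 and 128 CPM in DT-resistant and 154, 167 and 174 CPM in sensitive libraries. Only the VC- and DT-resistant libraries were separate from the sensitive ones and below them, with log2FC -0.53 ± 0.09 (adjusted p = 0.000133) and -0.47 ± 0.09 (adjusted p = 0.000328), against 0.07 ± 0.09 in EB-resistant cells (adjusted p = 0.542). AURKA, the spindle pole kinase, was at 163, 164 and 154 CPM in EB-resistant, 205, 196 and 205 CPM in VC-resistant, 186, 206 and 218 CPM in DT-resistant and 206, 207 and 206 CPM in sensitive libraries. It was lower in EB-resistant cells (log2FC -0.37 ± 0.07, adjusted p = 0.000224) and was not called in the other lines. The CDK1-activating phosphatase CDC25C was at 24.3, 24.4 and 22.8 CPM in EB-resistant, 19.5, 22.7 and 20.9 CPM in VC-resistant, 14.1, 18.4 and 22.0 CPM in DT-resistant and 20.4, 19.1 and 17.7 CPM in sensitive libraries. Its EB-resistant libraries lay above the sensitive ones (log2FC 0.32 ± 0.13, adjusted p = 0.0444), a call lost without DT-resistant replicate 5, any EB-resistant replicate, VC-resistant replicate 5 or 6, or sensitive replicate 5 or 6 (adjusted p from 0.05 to 0.12). Without it, the EB-resistant higher count was 1. CDCA3, part of the ubiquitin ligase route that removes WEE1, was lower in EB-resistant (log2FC -0.46 ± 0.10) and DT-resistant cells (-0.33 ± 0.10, adjusted p = 0.0118), the second call being lost without DT-resistant replicate 2 or sensitive replicate 5 or 6 (adjusted p from 0.054 to 0.0751).

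The 3 members that belong to the chromosomal passenger complex, which corrects faulty attachments and steers cytokinesis, were lower in every line (background 12.1%). Its kinase AURKB had 63.1, 58.6 and 60.0 CPM in EB-resistant libraries, 100.3, 88.7 and 88.1 CPM in VC-resistant, 71.4, 81.3 and 87.0 CPM in DT-resistant and 109, 111 and 111 CPM in sensitive libraries. The 4 groups were ordered EB-, DT-, VC-resistant and sensitive by mean, and the sensitive libraries overlapped none of the others. The log2FC was -0.87 ± 0.08 in EB-resistant (adjusted p = 2.55e-07), -0.26 ± 0.08 in VC-resistant (adjusted p = 0.0117) and -0.47 ± 0.08 in DT-resistant cells (adjusted p = 0.000125). The VC-resistant call was lost without VC-resistant replicate 5 or 6 (adjusted p = 0.0637 and 0.0657). BIRC5 (survivin), which brings the complex to centromeres and is also an apoptosis inhibitor, had 119, 119 and 113 CPM in EB-resistant, 104, 111 and 109.6 CPM in VC-resistant, 80.4, 93.2 and 95.3 CPM in DT-resistant and 121, 144 and 156 CPM in sensitive libraries. Here DT-resistant cells had the lowest libraries, with log2FC -0.64 ± 0.09 (adjusted p = 2.00e-05), against -0.37 ± 0.09 in VC-resistant (adjusted p = 0.00247) and -0.26 ± 0.09 in EB-resistant cells (adjusted p = 0.0215). The EB-resistant call was lost without EB-resistant replicate 2 or 6 or sensitive replicate 5 or 6 (adjusted p from 0.0535 to 0.145). CDCA8 (borealin), a scaffold of the complex, had log2FC of -0.24 ± 0.08, -0.30 ± 0.08 and -0.44 ± 0.08 in EB-, VC- and DT-resistant cells, the first not called without EB-resistant replicate 6 or sensitive replicate 5 or 6 (adjusted p from 0.0723 to 0.0902).

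Of the 4 spindle checkpoint genes, MAD2L1, the protein that blocks the APC/C activator, was lower in all lines, and TTK and BUB1B were called in none. MAD2L1 had log2FC of -0.62 ± 0.08 in EB-resistant (adjusted p = 5.76e-06), -0.34 ± 0.08 in VC-resistant (adjusted p = 0.00164) and -0.39 ± 0.08 in DT-resistant cells (adjusted p = 0.000463). The kinase BUB1 was lower in EB-resistant (log2FC -0.46 ± 0.08, adjusted p = 0.000251) and DT-resistant cells (-0.24 ± 0.08, adjusted p = 0.0254), the second call being lost without DT-resistant replicate 2 or sensitive replicate 5 or 6 (adjusted p from 0.0651 to 0.147). TTK, the kinase that starts the checkpoint signal, had log2FC between -0.17 and -0.12. In EB-resistant cells TTK was called lower without DT-resistant replicate 2 or 6 (adjusted p = 0.0403 and 0.0447) and with the EB-resistant and sensitive libraries fitted alone (adjusted p = 0.0362). BUB1B (BUBR1), part of the inhibitor complex, had log2FC between -0.15 and 0.18.

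The kinetochore genes gave the lowest fold changes of the 39 and also a rise. The plus-end motor CENPE, which carries chromosomes to the spindle equator, had 62.0, 45.5 and 51.3 CPM in EB-resistant, 32.3, 35.5 and 36.1 CPM in VC-resistant, 24.7, 37.6 and 44.4 CPM in DT-resistant and 82.8, 80.5 and 110.0 CPM in sensitive libraries. All resistant libraries lay below all sensitive ones, with the EB-resistant ones between. CENPE had log2FC of -1.39 ± 0.20 in VC-resistant (adjusted p = 9.49e-05), -1.36 ± 0.20 in DT-resistant (adjusted p = 9.79e-05) and -0.78 ± 0.19 in EB-resistant cells (adjusted p = 0.00442).

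The NDC80 complex, the microtubule-binding arm of the kinetochore, did not change as a unit. SPC25 had 36.6, 32.8 and 35.7 CPM in EB-resistant, 16.8, 23.2 and 23.1 CPM in VC-resistant, 12.9, 19.7 and 21.9 CPM in DT-resistant and 43.1, 40.7 and 44.4 CPM in sensitive libraries. It was lower in VC-resistant (log2FC -1.02 ± 0.16, adjusted p = 0.000121) and DT-resistant cells (log2FC -1.24 ± 0.16, adjusted p = 2.01e-05) and was not called in EB-resistant cells (log2FC -0.29 ± 0.16, adjusted p = 0.143, 0.0282 without DT-resistant replicate 2). NDC80 had 78.6, 71.7 and 72.5 CPM in EB-resistant, 126, 147 and 142 CPM in VC-resistant, 99.9, 132 and 142 CPM in DT-resistant and 112, 111 and 120.0 CPM in sensitive libraries. EB-resistant libraries were below (log2FC -0.62 ± 0.11, adjusted p = 0.000127) and VC-resistant libraries above the sensitive ones (log2FC 0.27 ± 0.10, adjusted p = 0.0367), and DT-resistant libraries overlapped them. The VC-resistant call was lost without VC-resistant replicate 5 or 6 or sensitive replicate 2 or 5 (adjusted p from 0.0773 to 0.106) and with library totals (adjusted p = 0.118), and in DT-resistant cells NDC80 was called higher without DT-resistant replicate 2 (adjusted p = 0.00853). NUF2, the partner of NDC80 in the microtubule-binding head, was lower in all lines, with log2FC of -0.63 ± 0.09, -0.25 ± 0.09 and -0.47 ± 0.09 in EB-, VC- and DT-resistant cells. The VC-resistant call was lost without VC-resistant replicate 5 or 6 or sensitive replicate 5 or 6 (adjusted p from 0.0507 to 0.0911). CENPF, an outer kinetochore protein, was lower in VC- and DT-resistant cells (log2FC -0.40 ± 0.11 and -0.44 ± 0.11) and by log2FC -0.27 ± 0.11 in EB-resistant cells (adjusted p = 0.0469), a call lost without EB-resistant replicate 5 or 6, any VC-resistant replicate, or sensitive replicate 2 or 6 (adjusted p from 0.0533 to 0.183). That CENPF call was also lost with DESeq2 (adjusted p = 0.0594), DESeq2 size factors (0.0529), limma (0.0550), library totals (0.156) and a replicate block (0.0606).

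The genes that set off and guard sister separation included ESPL1, lower in every line, and PTTG1, with changes in opposite directions. PTTG1 encodes securin, which holds separase inactive until anaphase. It had 92.7, 96.5 and 95.2 CPM in EB-resistant, 199, 180.4 and 199.5 CPM in VC-resistant, 150.4, 151 and 166 CPM in DT-resistant and 112, 118 and 119 CPM in sensitive libraries. No 2 of the 4 groups overlapped. Its log2FC was -0.29 ± 0.07 in EB-resistant (adjusted p = 0.00138), 0.73 ± 0.07 in VC-resistant (adjusted p = 4.05e-07) and 0.42 ± 0.07 in DT-resistant cells (adjusted p = 6.28e-05). Separase itself, ESPL1, was at 46.6, 42.4 and 42.1 CPM in EB-resistant, 41.2, 50.2 and 45.5 CPM in VC-resistant, 31.5, 47.4 and 43.1 CPM in DT-resistant and 69.2, 76.3 and 76.2 CPM in sensitive libraries. The 3 lines overlapped each other and all lay below the sensitive cells (log2FC -0.76 ± 0.12, -0.70 ± 0.12 and -0.86 ± 0.12, adjusted p = 8.32e-05, 0.000214 and 2.66e-05 in EB-, VC- and DT-resistant cells).

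Shugoshin (SGO1), which protects centromeric cohesin until anaphase and whose CHR word spans the start in the window above, had 20.2, 20.1 and 20.9 CPM in EB-resistant, 28.5, 28.9 and 32.3 CPM in VC-resistant, 24.7, 29.3 and 28.0 CPM in DT-resistant and 36.6, 37.6 and 40.6 CPM in sensitive libraries. EB-resistant libraries were the lowest and sensitive ones the highest, with the other lines between. The log2FC was -0.91 ± 0.09 in EB-resistant (adjusted p = 5.00e-07), -0.35 ± 0.09 in VC-resistant (adjusted p = 0.00293) and -0.49 ± 0.09 in DT-resistant cells (adjusted p = 0.000218). The APC/C activator CDC20 had 251, 255 and 252 CPM in EB-resistant, 273, 270.4 and 268 CPM in VC-resistant, 235, 265 and 271 CPM in DT-resistant and 286, 339.9 and 369.6 CPM in sensitive libraries. Sensitive replicate 2 lay close to the resistant libraries and replicates 5 and 6 well above them. CDC20 had log2FC of -0.39 ± 0.08, -0.29 ± 0.08 and -0.37 ± 0.08 in EB-, VC- and DT-resistant cells (adjusted p = 0.000947, 0.00788 and 0.00155), and in VC-resistant cells the adjusted p was 0.0686 when sensitive replicate 6 was left out. UBE2C, the ubiquitin-conjugating enzyme of the APC/C, was lower in EB-resistant cells (log2FC -0.64 ± 0.06, adjusted p = 6.83e-07); in DT-resistant cells (log2FC -0.16 ± 0.06, adjusted p = 0.0435) the groups overlapped, and the call was lost without 10 of the 12 libraries, all but DT-resistant replicate 6 and sensitive replicate 2 (adjusted p from 0.0615 to 0.19).

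Among the spindle genes, KIF11 and TPX2 fell together in all 3 lines. KIF11, the motor that pushes spindle poles apart, had 130.5, 122 and 122 CPM in EB-resistant, 127, 132 and 134 CPM in VC-resistant, 95.4, 123 and 123 CPM in DT-resistant and 179, 205 and 229.6 CPM in sensitive libraries, and no resistant library reached a sensitive one. Its log2FC was -0.71 ± 0.10, -0.64 ± 0.10 and -0.85 ± 0.10 in EB-, VC- and DT-resistant cells (adjusted p = 2.02e-05, 6.86e-05 and 4.29e-06). TPX2, which activates Aurora A on spindle microtubules and per length was the most abundant member in sensitive cells (234 CPM per kb), had log2FC of -0.58 ± 0.10, -0.45 ± 0.10 and -0.62 ± 0.10. The microtubule depolymerase KIF2C was lower in EB-resistant cells (log2FC -0.41 ± 0.08, adjusted p = 0.000706) and not called in the others. ASPM, a spindle pole protein, was lower in VC- and DT-resistant cells (log2FC -0.38 ± 0.12 and -0.43 ± 0.12), the first call being lost without VC-resistant replicate 2 or sensitive replicate 6 (adjusted p = 0.068 and 0.0676). In EB-resistant cells (log2FC -0.29 ± 0.12, adjusted p = 0.0554) it was called lower without DT-resistant replicate 2 or 6 or replicate 2 of the EB- or VC-resistant cells (adjusted p from 0.00693 to 0.0475). The spindle protein DLGAP5 was lower in EB- and DT-resistant cells (log2FC -0.27 ± 0.08 in each), calls lost without EB-resistant replicate 6 or sensitive replicate 6 in the first (adjusted p = 0.0859 and 0.0603) and without DT-resistant replicate 2 or sensitive replicate 6 in the second (adjusted p = 0.0633 and 0.0553). HMMR, a hyaluronan receptor that also binds spindle microtubules, had 101, 98.1 and 107 CPM in EB-resistant, 125, 147 and 152 CPM in VC-resistant, 107, 129.6 and 149 CPM in DT-resistant and 109.7, 109.9 and 116 CPM in sensitive libraries. It was higher in VC-resistant cells (log2FC 0.34 ± 0.10, adjusted p = 0.0119), not called in EB-resistant cells (-0.13 ± 0.10) and, in DT-resistant cells (0.20 ± 0.10, adjusted p = 0.109), called higher without DT-resistant replicate 2 (adjusted p = 0.00564) and with a replicate block (adjusted p = 0.0421).

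Of the central spindle and cytokinesis genes, the motor KIF23 was lower and the motor KIF20A higher in the same cells. KIF23, the kinesin of the centralspindlin complex, had 109, 83.6 and 91.6 CPM in EB-resistant, 133, 136 and 144 CPM in VC-resistant, 116, 149.7 and 155 CPM in DT-resistant and 168, 168 and 187 CPM in sensitive libraries. All resistant libraries were below the sensitive ones, by log2FC -0.88 ± 0.11 in EB-resistant (adjusted p = 6.29e-06), -0.34 ± 0.11 in VC-resistant (adjusted p = 0.0139) and -0.32 ± 0.11 in DT-resistant cells (adjusted p = 0.0198). Leaving out sensitive replicate 6 ended the VC-resistant call (adjusted p = 0.0712), and the DT-resistant call was lost without DT-resistant replicate 2 or sensitive replicate 6 (adjusted p = 0.0975 and 0.0863). KIF20A, which carries the passenger complex to the central spindle, had 152, 157 and 144 CPM in EB-resistant, 109, 111 and 104 CPM in VC-resistant, 99.4, 129 and 133 CPM in DT-resistant and 85.8, 99.4 and 108 CPM in sensitive libraries. EB-resistant libraries were above all others (log2FC 0.63 ± 0.10 over sensitive, adjusted p = 9.25e-05), and the DT-resistant difference of 0.30 ± 0.10 (adjusted p = 0.0207) came with overlapping groups and was lost without DT-resistant replicate 5 or 6 or sensitive replicate 2 (adjusted p from 0.0833 to 0.0996). ECT2, the exchange factor that activates RhoA for the cleavage furrow, was lower in EB-resistant cells (log2FC -0.51 ± 0.11, adjusted p = 0.000991), and in DT-resistant cells without DT-resistant replicate 6 (adjusted p = 0.0275). ANLN (anillin), the furrow scaffold, had log2FC between -0.18 and 0.00. PRC1, the microtubule bundler of the midzone, had a log2FC of -0.83 ± 0.17 in EB-resistant cells at only 2.83 to 3.15 CPM against 4.70 to 5.78 CPM in sensitive cells, with the overlap given above.

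MKI67 (Ki-67), the proliferation marker that coats mitotic chromosomes, was lower in all 3 lines, and TOP2A, the topoisomerase that untangles sister DNA, in none. MKI67 had 316, 262 and 272 CPM in EB-resistant, 326, 316 and 326 CPM in VC-resistant, 267, 346 and 339.6 CPM in DT-resistant and 372, 402 and 479.5 CPM in sensitive libraries. The resistant lines overlapped each other and not the sensitive cells. Its log2FC was -0.56 ± 0.11, -0.37 ± 0.11 and -0.39 ± 0.11 in EB-, VC- and DT-resistant cells (adjusted p = 0.000462, 0.00944 and 0.00588), and in VC-resistant cells the adjusted p was 0.0711 when sensitive replicate 6 was left out. TOP2A had 559, 536 and 536 CPM in EB-resistant, 656, 632 and 679 CPM in VC-resistant, 512, 639 and 634 CPM in DT-resistant and 586, 565 and 599.9 CPM in sensitive libraries. EB-resistant libraries were below and VC-resistant libraries above the sensitive ones, yet neither difference was called (log2FC -0.10 ± 0.08 and 0.17 ± 0.08, adjusted p = 0.287 and 0.0834), the second being called without DT-resistant replicate 2 (adjusted p = 0.0183).

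**Figure D4:**
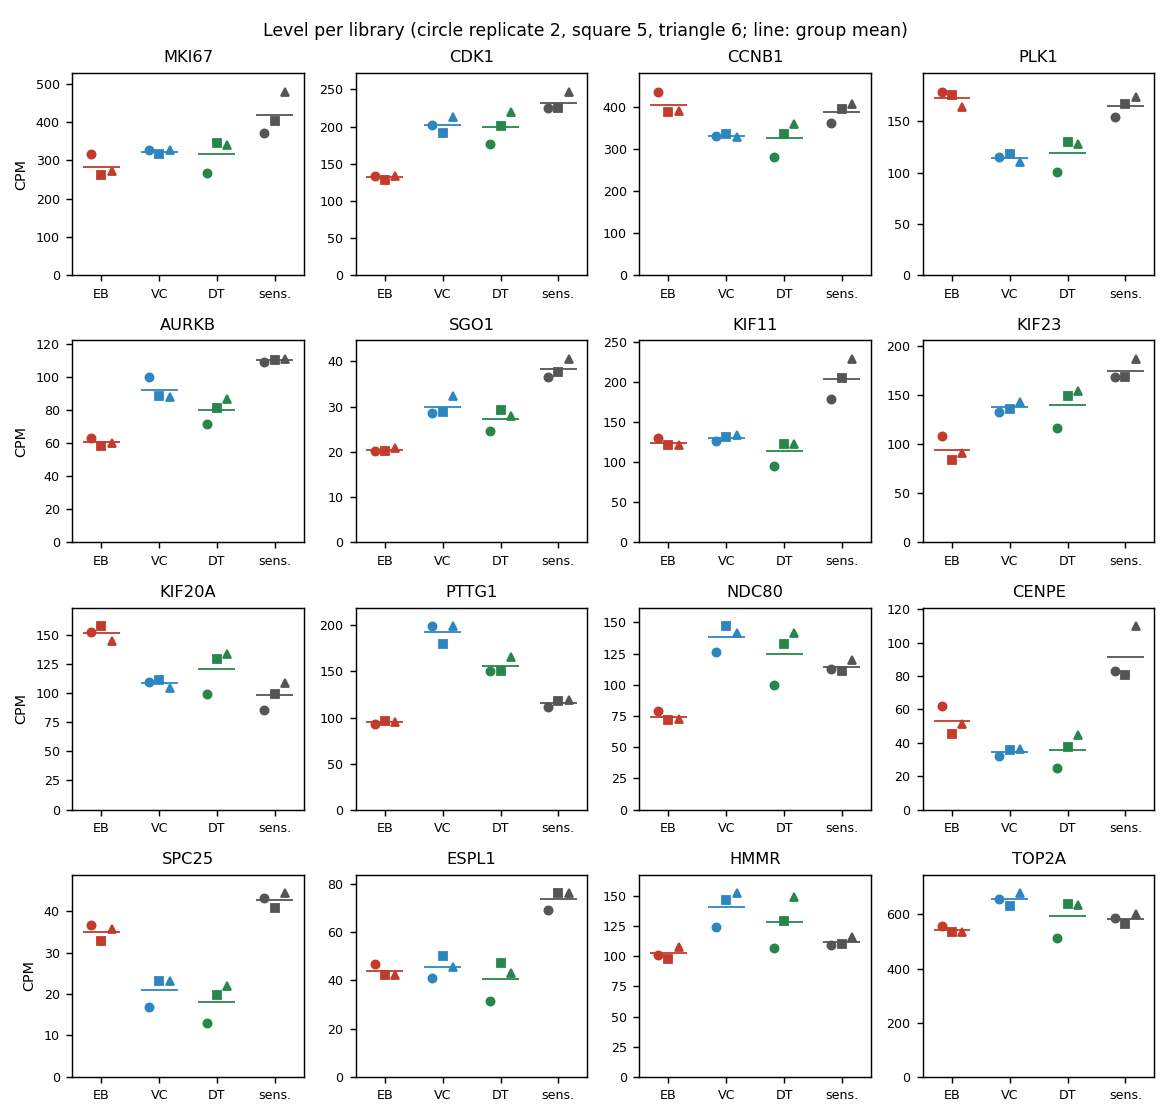
Level in CPM of 16 members in each library (circle replicate 2, square 5, triangle 6), with the group mean as a line and the y axis starting at 0, in the order EB-, VC-, DT-resistant and sensitive. KIF11 and ESPL1 are lower in all 3 lines; CENPE and SPC25 are lowest in VC- and DT-resistant cells; CDK1, NDC80 and PTTG1 are lowest in EB-resistant cells; KIF20A is highest there.

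The resistant lines were also compared with each other. In EB-resistant against VC-resistant cells, 19 members were lower (background 28.8%) and 5 higher (background 29.6%), with a median log2FC of -0.19, and 58.4% of all genes were called in either direction. At 1.5-fold or more, 6 were lower (background 17%) and 3 higher (19.6%). In 21 members all EB-resistant libraries lay below all VC-resistant ones (background 32.6%), and in 9 above (33.5%). In EB-resistant against DT-resistant cells, 15 were lower (background 28.8%) and 8 higher (background 28.4%), with a median of -0.15; the higher count was 4 without DT-resistant replicate 2 and 5 without EB-resistant replicate 5. In all, 57.2% of all genes were called in this pair. At 1.5-fold or more, 3 members were lower (background 16.6%) and 1 higher (18.4%). In 12 members all EB-resistant libraries lay below all DT-resistant ones (background 31.9%), and in 8 above (32.3%). With library totals in place of TMM scaling, which put the median of all genes at 0.12, EB-resistant against DT-resistant cells had 9 higher and 10 lower. In EB-resistant against VC-resistant cells library totals put that median at 0.11 and ended 6 of the lower calls. VC-resistant against DT-resistant cells had 2 members higher (background 7.08%) and 0 lower (edgeR, background 8.71%; 1 at an unadjusted p under 0.05, and 0 adjusted by DESeq2 or limma). Of all genes 15.8% were called. None of the members differed by 1.5-fold or more (edgeR, background 3.44% higher and 4.73% lower). In 8 members all VC-resistant libraries lay above all DT-resistant ones (background 14.8%), and in 0 below (15.7%). The 2 called were PTTG1 (log2FC 0.31 ± 0.07, adjusted p = 0.00465) and BIRC5 (0.27 ± 0.09, adjusted p = 0.0499). The BIRC5 call was lost without DT-resistant replicate 2 or 5, any EB-resistant replicate, VC-resistant replicate 5 or 6, or sensitive replicate 5 (adjusted p from 0.0602 to 0.164). The higher count in this pair was 4 without DT-resistant replicate 6 and 1 with any of those libraries left out, and 2 members were called lower without DT-resistant replicate 2.

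PTTG1, NDC80, SPC25 and CENPE had the lowest and highest fold changes of the EB-resistant line in both pairs, which share its libraries. PTTG1 was lower, by log2FC -1.02 ± 0.07 against VC-resistant (adjusted p = 1.06e-08) and -0.72 ± 0.07 against DT-resistant cells (adjusted p = 3.95e-07). NDC80 was lower by -0.90 ± 0.11 (adjusted p = 3.96e-06) and -0.75 ± 0.11 (adjusted p = 2.57e-05). SPC25 was higher, by 0.73 ± 0.16 against VC-resistant (adjusted p = 0.00141) and 0.95 ± 0.16 against DT-resistant cells (adjusted p = 0.000208). CENPE was higher by 0.61 ± 0.19 and 0.57 ± 0.19 (adjusted p = 0.0179 and 0.0248), calls lost without EB-resistant or VC-resistant replicate 2 in the first (adjusted p = 0.0707 and 0.0696) and without DT-resistant or EB-resistant replicate 2 in the second (adjusted p = 0.0584 and 0.0895). CDK1 was lower by -0.61 ± 0.08 and -0.59 ± 0.08 (adjusted p = 8.60e-06 and 1.32e-05), while PLK1 was higher by 0.59 ± 0.09 and 0.53 ± 0.09 (adjusted p = 3.67e-05 and 0.000105) and CCNB1 by 0.29 ± 0.09 and 0.32 ± 0.09 (adjusted p = 0.00859 and 0.00509). Without DT-resistant replicate 2, MKI67, TOP2A, NUF2, BUB1B and CCNA2 were also called lower in EB-resistant than in DT-resistant cells (adjusted p from 0.00681 to 0.0292).

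Some of these members sit among neighbours that moved with them on the chromosome. Within 10 Mb of NDC80 on chromosome 18, 66 tested genes had median log2FC of -0.47, 0.37 and 0.29 in EB-, VC- and DT-resistant cells over sensitive cells, the same signs as NDC80. Around PTTG1 on chromosome 5, 66 genes had medians of 0.36, 0.50 and 0.47, so PTTG1 lay below its neighbours' median in EB- and DT-resistant cells and above it in VC-resistant cells. Around CDK1 on chromosome 10, 63 genes had medians of -0.57, -0.13 and -0.13, beside -0.81, -0.20 and -0.22 for CDK1 itself. Around MKI67, farther along chromosome 10, 78 genes had medians of -0.50, -0.48 and -0.48 beside -0.56, -0.37 and -0.39 for MKI67 itself. For SGO1 (76 neighbours, medians -0.03, -0.04 and -0.08), SPC25 (119 neighbours, 0.00, -0.16 and -0.25) and CENPE (68 neighbours, -0.11, -0.35 and -0.26) the member was lower than its neighbours' median in every line. Over 38 members, 34, 29 and 31 in EB-, VC- and DT-resistant cells were below the median of their neighbours, by a median of -0.29, -0.17 and -0.35 on the log2 scale. The share of all genes below the median of their own neighbours was not computed. The part of chromosome position in these differences was not tested.

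Other genes of the mitotic programme were counted in lists drawn up by known role. From each list, genes are named in the comparisons where their adjusted p was among the lowest of the list. FOXM1, MYBL2, E2F1, WEE1, CDKN1A and CCND1 are always named. A line left out beside a named gene is thus not shown to lack a change in it. Of 57 other mitotic genes, 34 were lower and 5 higher in EB-resistant cells (median log2FC -0.37), 26 lower and 5 higher in VC-resistant cells (median -0.23; 3 higher without VC-resistant replicate 2) and 38 lower and 3 higher in DT-resistant cells (median -0.36; 1 higher without DT-resistant replicate 6 or sensitive replicate 5). The other 18, 26 and 16 were not called, and of all genes 27.6%, 27.4% and 29.3% were lower and 28.5%, 27.6% and 29.8% higher. BUB3, the partner of BUB1 at kinetochores, had log2FC of -1.24 ± 0.09 in EB-resistant and -0.86 ± 0.09 in DT-resistant cells (adjusted p = 1.95e-08 and 1.01e-06). In VC-resistant cells BUB3 was above its DT-resistant level by log2FC 0.36 ± 0.09, less than the DT-resistant difference from sensitive cells. SKA1, of the complex that keeps kinetochores on microtubules, was lower in EB-resistant cells (-1.15 ± 0.08, adjusted p = 2.79e-08), and the condensin subunit NCAPG in VC-resistant cells (-1.17 ± 0.14, adjusted p = 9.83e-06). MAD1L1, the anchor of MAD2 at kinetochores, was higher in all 3 (0.58 ± 0.14, 0.73 ± 0.14 and 0.52 ± 0.14 in EB-, VC- and DT-resistant cells).

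The regulators of the programme moved in both directions. Of 22 transcription factors, 6 were lower (27.3%, background 27.6%) and 5 higher (22.7%, background 28.5%) in EB-resistant cells. In VC-resistant cells 6 were lower and 6 higher (27.3% each, background 27.4% and 27.6%). These shares are near those of all genes. In DT-resistant cells 11 were lower (50%, background 29.3%) and 5 higher (22.7%, background 29.8%). The EB-resistant higher count was 3 without sensitive replicate 5, and the VC-resistant lower count was 9 without sensitive replicate 2. FOXM1 averaged 181 ± 3.90 CPM in EB-resistant, 256 ± 25.3 CPM in VC-resistant, 194 ± 25.5 CPM in DT-resistant and 288 ± 34.3 CPM in sensitive cells (SD, n = 3 each), and was lower in EB- and DT-resistant cells (log2FC -0.67 ± 0.11 and -0.57 ± 0.10) and not called in VC-resistant cells (-0.17 ± 0.10, adjusted p = 0.173, 0.0373 without sensitive replicate 2). MYBL2 was not called in any line (log2FC -0.01 ± 0.19, -0.38 ± 0.19 and -0.28 ± 0.19), though it was lower in VC- and DT-resistant cells without sensitive replicate 2 (adjusted p = 0.00125 and 0.00394). E2F1 was lower in EB- and DT-resistant cells (log2FC -0.86 ± 0.30 and -0.83 ± 0.30, adjusted p = 0.0354 and 0.0391). The first call was lost without EB-resistant replicate 2 or 5 or sensitive replicate 5 or 6 (adjusted p from 0.0949 to 0.109), and the second without DT-resistant replicate 2 or 6, EB-resistant replicate 5, VC-resistant replicate 5 or 6, or sensitive replicate 5 or 6 (adjusted p from 0.0506 to 0.117). The MuvB subunit LIN9 was lower in all lines (log2FC -0.65 ± 0.09, -0.52 ± 0.09 and -0.59 ± 0.09). The pocket protein RBL1 was lower (log2FC -1.13 ± 0.15 and -1.380 ± 0.147) and its relative RBL2 higher (0.94 ± 0.13 and 1.01 ± 0.13) in VC- and DT-resistant cells.

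Upstream of CDK1, the phosphatase CDC25A, which removes inhibitory phosphates from CDKs, was lower in every line (log2FC -1.65 ± 0.19, -0.76 ± 0.18 and -1.13 ± 0.18 in EB-, VC- and DT-resistant cells) and its relative CDC25B higher (0.39 ± 0.08, 0.27 ± 0.08 and 0.25 ± 0.08). WEE1, the kinase that places those phosphates, was not called (log2FC 0.04 ± 0.09, 0.17 ± 0.09 and 0.20 ± 0.09), but was called higher in DT-resistant cells without DT-resistant replicate 6 (adjusted p = 0.0171) and with a replicate block (adjusted p = 0.0272). Among the 9 tested genes of CDK1 control, 4 were lower and 2 higher in each line. Of 16 genes of the APC/C, 5, 8 and 6 were lower and 5, 4 and 3 higher in EB-, VC- and DT-resistant cells, and of 14 cohesin genes 6, 7 and 6 were lower and 3, 2 and 3 higher. Of all genes, 27.6%, 27.4% and 29.3% were lower and 28.5%, 27.6% and 29.8% higher in these lines. The cohesin core subunit SMC3 was lower in all lines (log2FC -0.85 ± 0.07, -0.45 ± 0.07 and -0.68 ± 0.07), and STAG2, a subunit that binds the ring, was higher (0.48 ± 0.08, 0.76 ± 0.08 and 0.72 ± 0.08).

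S phase genes are read before the mitotic ones in the cycle. Of 41, 23 were lower (background 27.6%) and 1 higher (background 28.5%) in EB-resistant cells (median log2FC -0.46). In VC-resistant cells 27 were lower (background 27.4%, median log2FC -0.53), and in DT-resistant cells 35 (background 29.3%, median log2FC -0.80). None was higher in VC- or DT-resistant cells (background 27.6% and 29.8%) by edgeR, DESeq2 or limma, nor at an unadjusted p under 0.05 in any of these. The EB-resistant higher call was RFC4, a subunit of the clamp loader (log2FC 0.31 ± 0.12, adjusted p = 0.0388), lost without DT-resistant replicate 5, EB-resistant replicate 2 or 6, or any sensitive replicate (adjusted p from 0.0506 to 0.127). The VC-resistant lower count was 16 without sensitive replicate 6, with 1 gene then higher, and 1 was higher in DT-resistant cells without DT-resistant replicate 2. Summed S phase RNA was 2796, 2654 and 3160.2 CPM in EB-resistant, 2230.3, 2879 and 2885 CPM in VC-resistant, 1654, 2432 and 2474 CPM in DT-resistant and 3290.2, 4172 and 4653 CPM in sensitive replicates 2, 5 and 6. In each of the VC-resistant, DT-resistant and sensitive groups replicate 2 was the lowest library.

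Genes that control entry into the cycle included changes of over 1.5-fold in both directions. Cyclin D1 (CCND1), induced by growth signals, averaged 37.6 ± 8.03 CPM in EB-resistant, 179 ± 9.92 CPM in VC-resistant, 138 ± 10.1 CPM in DT-resistant and 421 ± 23.5 CPM in sensitive cells (SD, n = 3 each), with log2FC of -3.49 ± 0.13, -1.24 ± 0.12 and -1.61 ± 0.12. The CDK inhibitor CDKN1A (p21) averaged 20.02 ± 9.48, 3.83 ± 0.204 and 3.94 ± 1.57 CPM in EB-, VC- and DT-resistant cells against 74.9 ± 10.4 CPM in sensitive cells (log2FC -1.90 ± 0.36, -4.29 ± 0.42 and -4.25 ± 0.41). CDKN1B (p27) was higher in VC- and DT-resistant cells (log2FC 0.89 ± 0.16 and 1.376 ± 0.160), and CDKN2B (p15) and CDKN1C (p57) in EB-resistant cells (log2FC 2.97 ± 0.20 and 2.60 ± 0.31). The EB-resistant difference in CDKN2B was smaller over DT-resistant (log2FC 1.65 ± 0.19) and VC-resistant cells (2.44 ± 0.19). The fitted CDKN2B level in these lines thus lay between those of EB-resistant and sensitive cells. Of the 11 G1 regulators tested, 3, 4 and 4 were lower in EB-, VC- and DT-resistant cells (background 27.6%, 27.4% and 29.3%). Those higher numbered 4, 3 and 3 (background 28.5%, 27.6% and 29.8%).

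**Figure D5:**
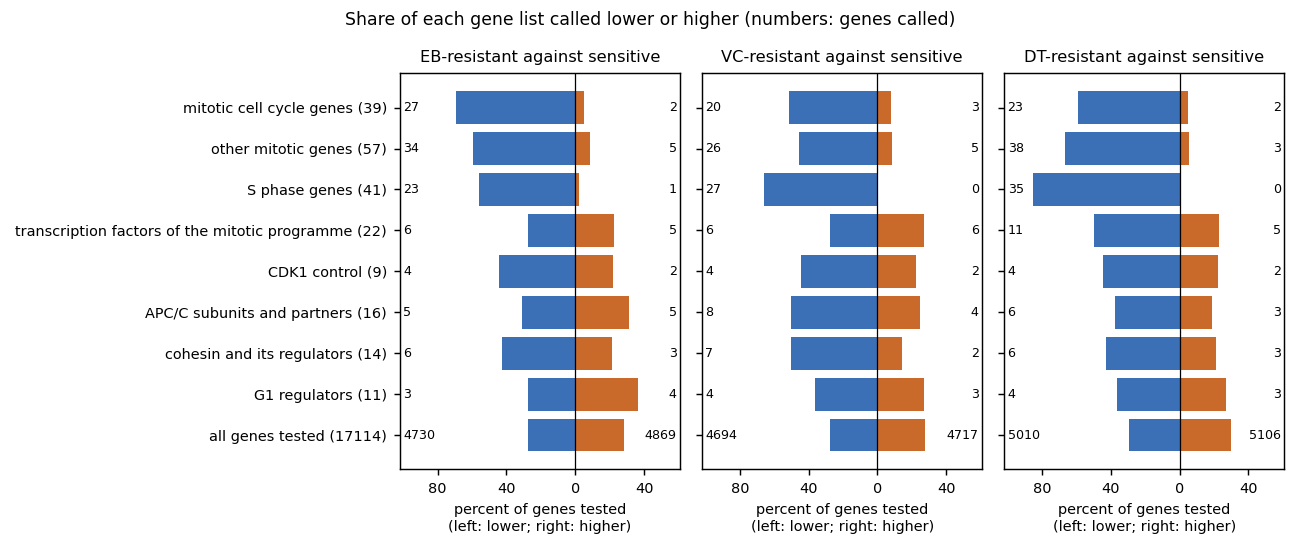
Share of each gene list called lower (left of 0) or higher (right of 0) than in sensitive cells, in percent of genes tested, for EB-, VC- and DT-resistant cells; numbers at the sides are genes called and numbers in brackets genes tested. The 39 members, the other mitotic genes and the S phase genes extend to the left beyond all genes tested, whose shares are 27.6% lower and 28.5% higher in EB-resistant cells.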

How the data were processed

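RNA was measured by strand-specific, paired-end polyA sequencing in 12 libraries of 1 melanoma line, 3 per group. Per the submitters' processing notes, bcl2fastq 2.20.0, STAR 2.7.10b, featureCounts 2.0.1 and DESeq2 1.38.3 were used with hg38. The sources used here give no strand setting, annotation release or drug dose. The authors deposited raw counts per gene and, beside them, a normalised signal, which equals the count divided by 1 size factor per library (largest difference 0.0684).

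Counts were fitted with edgeR 4.0.16 in R 4.3.3 (TMM scaling, filterByExpr, robust quasi-likelihood fit of all 12 libraries, 8 residual degrees of freedom), with Benjamini-Hochberg adjustment over 17114 genes and a threshold of 0.05. The fit was tested on simulated data with known changes. Alternatives were DESeq2 1.42.0, its size factors, library totals, no filter, limma 3.58.1 on log2 of the deposited normalised signal with a pseudocount of 1, a replicate block, the groups of a comparison alone, a fold of at least 1.5 and each library left out. Same-numbered VC- and DT-resistant libraries deviated together from their group means (r = 0.337, 0.151 and 0.195 for replicates 2, 5 and 6). The numbers were therefore taken to pair these lines, though r was not tested. The main fit, which gave the adjusted p values between these lines, leaves the replicate number out, and the replicate block includes it. In the other comparisons r ran from 0.0014 to 0.110, and only replicate 6 of EB- against DT-resistant cells was over 0.1. No libraries of a group agreed within sampling noise. Python 3.11.15, pandas 2.3.3 and matplotlib 3.10.9 served for summaries and figures.

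The members and lists were chosen with earlier results of these data known. Values per library are given for 9 fixed members (MKI67, CDK1, CCNB1, PLK1, AURKA, AURKB, TOP2A, BIRC5, CDC20) and for the 3 members with the highest and lowest fold change among those called in each comparison with sensitive cells; KIF11 was added after its values were seen, as one of the members lower in all 3 lines. Replicate p values measure only the spread between these libraries.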

Additional observations from a re-analysis of the deposited data

Results flagged for a closer look

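The kinetochore gene NDC80 and the securin gene PTTG1 were called in opposite directions in different resistant lines against the same sensitive libraries, and the difference between the lines was itself called. NDC80 was lower in EB-resistant and higher in VC-resistant cells, and EB-resistant against VC-resistant cells had a log2FC of -0.90 (adjusted p = 3.96e-06, edgeR); all 3 EB-resistant libraries lay below all 3 VC-resistant ones. The VC-resistant call against sensitive cells was lost without VC-resistant replicate 5 or 6 or sensitive replicate 2 or 5 (adjusted p from 0.0773 to 0.106) and with library totals (adjusted p = 0.118). PTTG1 was lower in EB-resistant and higher in VC- and DT-resistant cells, with log2FC of -1.02 for EB-resistant against VC-resistant (adjusted p = 1.06e-08) and -0.72 for EB-resistant against DT-resistant cells (adjusted p = 3.95e-07), again with no overlap of libraries. The genes within 10 Mb of NDC80 had medians of the same signs as NDC80, and those of PTTG1 did not in EB-resistant cells; the part of position was not tested.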

How the results depend on the processing

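No value of a member changed direction past the threshold under any alternative run. At 1.5-fold or more, members higher and lower numbered 1 and 12 in EB-resistant, 1 and 4 in VC-resistant and 0 and 6 in DT-resistant against sensitive cells, 3 and 6 in EB-resistant against VC-resistant, 1 and 3 in EB-resistant against DT-resistant and 0 higher in VC-resistant against DT-resistant cells. With library totals, and with the groups of a comparison alone, 1 member was higher in DT-resistant against sensitive and 1 in VC-resistant against DT-resistant cells; DESeq2 size factors, limma and no filter also gave 1 in the second. With 1 library left out, EB-resistant against sensitive cells had 1 to 2 higher and 23 to 30 lower, VC-resistant 2 to 4 higher and 13 to 20 lower, DT-resistant 1 to 4 higher and 16 to 24 lower, and members lower in all 3 lines numbered 7 to 16. EB-resistant against VC-resistant cells had 4 to 5 higher and 18 to 20 lower, EB-resistant against DT-resistant 4 to 8 higher and 10 to 20 lower, and VC-resistant against DT-resistant 1 to 4 higher and 0 to 2 lower. Over the alternatives other than the fold and the left-out libraries, EB-resistant against VC-resistant cells had 13 to 20 lower. In that pair library totals ended the lower calls of BUB1, BUB1B, CDCA3, ECT2, MAD2L1 and TOP2A. Against sensitive cells, library totals also ended the EB-resistant calls of BIRC5, CDCA8, DLGAP5 and CENPF, the VC-resistant call of NDC80 and the DT-resistant call of KIF20A. The groups fitted alone ended the DT-resistant calls of BUB1, CCNB1, CDK1, KIF20A and UBE2C and gained the EB-resistant calls of ASPM, SPC25 and TTK. No filter ended the VC-resistant call of CDK1 and the DT-resistant call of UBE2C, which DESeq2 size factors and limma also ended. Outside the members, E2F1 lost its EB-resistant call with library totals or no filter (adjusted p = 0.0604 and 0.0583) and its DT-resistant call with no filter (0.0681), and was called lower in VC-resistant cells with the replicate block (0.0386). The cause of these changes was not tested. With the replicate block, EB-resistant against sensitive cells had 26 lower (CENPF lost) and DT-resistant 3 higher (HMMR gained), and 14 members were lower in all 3 lines. Between the VC- and DT-resistant lines, taken as paired, the count stayed at 2 higher and 0 lower. Precision is limited by 3 libraries per group and, for PRC1 and NUSAP1, by low counts.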
